A study of Danio rerio with 17 samples.

Results

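The 10 genes described here encode the enzymes that carry acetyl-CoA and acetoacetate through mevalonate to squalene. They were taken as the probe sets whose only gene symbol is aacs, acat2, hmgcs1, hmgcra, mvk, pmvk, mvda, idi1, fdps or fdft1, read without regard to case. All 10 of the 10 genes were measured, out of 20908 genes with a probe set of their own and 75212 probe sets in all. A single probe set represented 9 of them. For hmgcs1, which had 2, the probe set with the higher mean was used.

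The data were 17 arrays of liver RNA from female transgenic zebrafish labelled as 6 months old. In the HBx,src line the liver promoter fabp10a drives the X protein of hepatitis B virus (HBx) and the oncogene src in hepatocytes. Fish of the HBx,src,p53 line have both transgenes and are heterozygous for p53 as well (p53-/+). From 3 months of age the fish of the normal diet (NOR) received 6.9 mg and those of the overfeeding diet (DIO, for diet-induced obesity) 83 mg of Artemia cysts per fish and day for 2 months. DIO+OF fish were overfed and also received Oligo-Fucoidan (OF), a low molecular weight fucoidan from brown seaweed, by oral gavage at 300 mg/kg for 1 month from 4 months of age. The labelled age is later than the end of these periods, and the labels do not account for the time between. Each group had 3 arrays, except NOR of HBx,src,p53, which had 2. The other fish are labelled as mock without saying what the mock was, and the gavage was done under anesthesia, so a difference with OF cannot be told apart from one of gavage or anesthesia. Nothing in the labels says how many fish an array holds, and the p-values measure the spread between arrays.

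The mevalonate pathway builds sterols and other isoprenoids. In the cytosol, units of acetyl-CoA are joined to hydroxymethylglutaryl-CoA (HMG-CoA), which HMG-CoA reductase turns into mevalonate, the committed step and the target of statins. Mevalonate is phosphorylated and decarboxylated to isopentenyl diphosphate, units of which are joined to farnesyl diphosphate and then to squalene. In mammals the genes of these enzymes are switched on together by sterol regulatory element binding proteins (SREBPs), which the escort protein SCAP carries out of the endoplasmic reticulum when sterols are scarce and INSIG proteins hold back when sterols are ample. The liver is a main site of this synthesis.

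All HBx,src arrays were labelled batch 1 and all HBx,src,p53 arrays batch 2, so these cannot be told apart and levels were compared only within a line. Median log2 signals of the arrays ranged from 2.095 to 2.212 in batch 1 and from 2.552 to 2.684 in batch 2. The spread of signals within an array also differed, with interquartile ranges of 1.798 to 2.028 in batch 1 and 2.888 to 3.336 in batch 2. The median log2 signal of 11 hepatocyte markers lay between 11.18 and 12.87 over the 17 arrays. HBx,src,p53 DIO+OF replicate 3 stood apart: its log2 signal of vtg2, a vitellogenin (egg yolk precursor) that the female liver makes, was 2.76, while the other arrays ranged from 13.75 to 14.04, and its signal of the estrogen receptor esr1 was 5.89, while the others ranged from 7.84 to 10.82. The counts of enzymes called with OF at an adjusted p under 0.05, and the main other results that change without this array, are also given without it. Counts by other criteria are given only with it.

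OF went with opposite differences of the mean signals of the 10 listed enzymes in the lines. The other HMG-CoA reductase gene, hmgcrb, was not among them, and its DIO and DIO+OF arrays overlapped in HBx,src,p53. In HBx,src livers the mean log2 signal of all 10 enzymes was higher in DIO+OF than in DIO, and in HBx,src,p53 livers that of all 10 was lower. DIO+OF was the group with the highest mean of its line for 10 of 10 enzymes in HBx,src and the group with the lowest for 10 of 10 in HBx,src,p53. Of the HBx,src,p53 differences, those of 5 enzymes passed an adjusted p of 0.05, where 0.766% of all probe sets were called lower, and the difference between the lines passed for 6, where 0.44% were. Both counts were 0 when the DIO+OF array low in vitellogenin was left out. The log2 fold change of the reductase hmgcra with OF in HBx,src,p53 was then -0.40. In HBx,src none passed (0 of 10), and 1 of the 3 DIO+OF arrays stayed near the DIO arrays for several enzymes. Overfeeding alone moved none of the 10 past the threshold in either line.

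**Figure D1:**
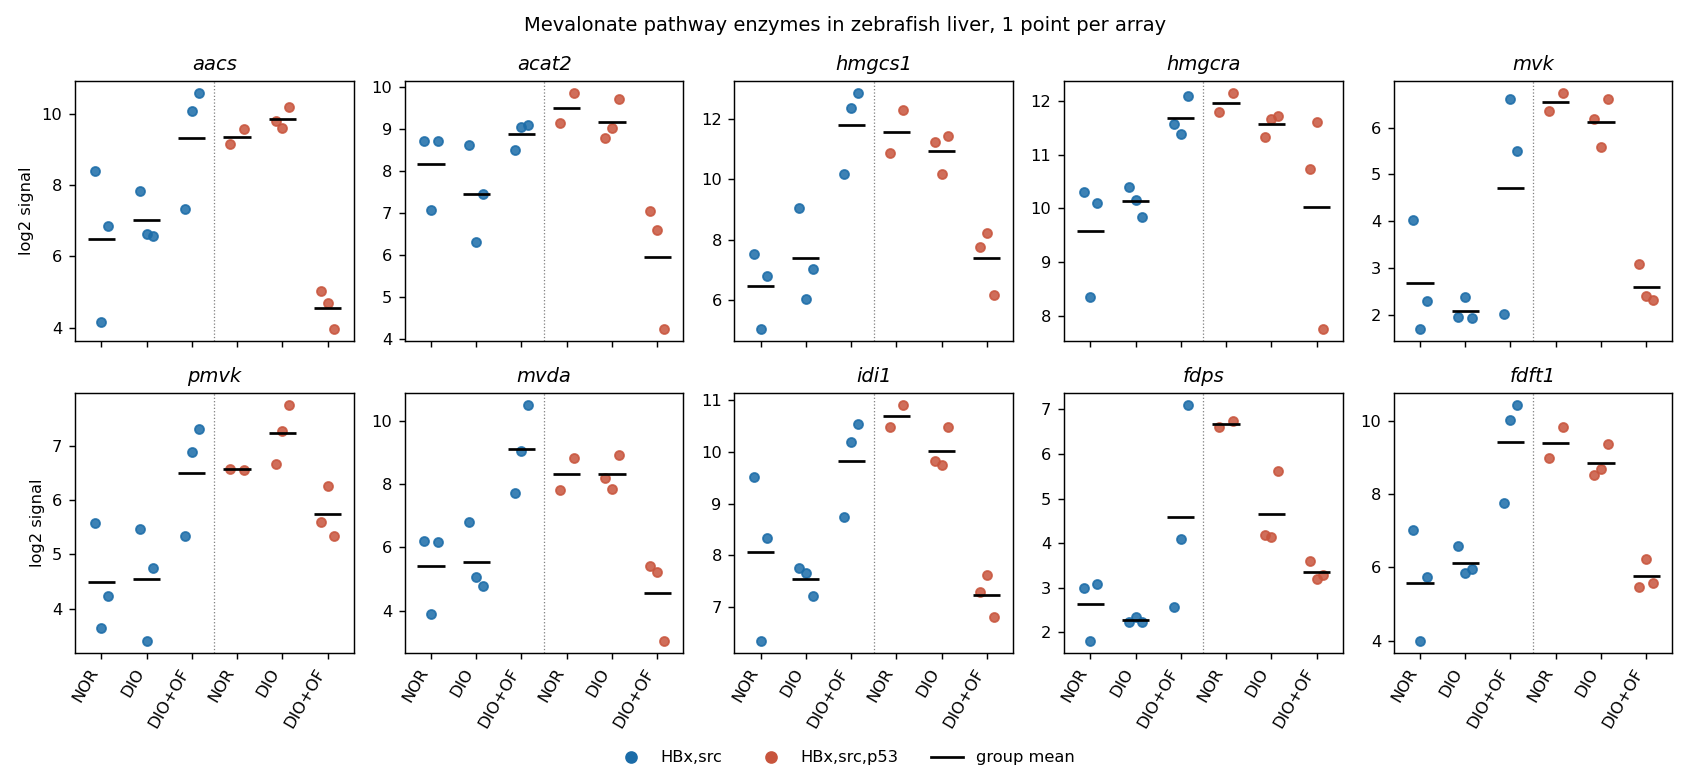
Log2 signal of each enzyme (y axis, its own scale per panel) in the 17 arrays, 1 point per array, by group (x axis), with HBx,src in blue to the left of the dotted line and HBx,src,p53 in red to the right. Black bars are group means, and in every panel the bar of DIO+OF is the highest of the HBx,src groups and the lowest of the HBx,src,p53 groups.

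The first enzymes make and condense acetoacetyl-CoA. In HBx,src, aacs, which activates the ketone body acetoacetate to acetoacetyl-CoA, had log2 signals of 8.41, 4.15 and 6.87 in NOR (replicates 1 to 3), 7.84, 6.64 and 6.58 in DIO, and 7.33, 10.07 and 10.59 in DIO+OF. DIO+OF replicate 1 lay among the DIO arrays and the other 2 lay above every other array of the line. For acat2, the cytosolic thiolase that joins acetyl-CoA units, the signals were 8.71, 7.08 and 8.71 in NOR, 8.62, 6.31 and 7.44 in DIO, and 8.50, 9.05 and 9.10 in DIO+OF. Its groups overlapped.

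Formation of HMG-CoA and mevalonate follows. The signals of hmgcs1, the cytosolic HMG-CoA synthase, were 7.52, 5.03 and 6.79 in NOR, 9.05, 6.04 and 7.03 in DIO, and 10.18, 12.36 and 12.87 in DIO+OF of HBx,src. All 3 DIO+OF arrays lay above the other 6. For hmgcra, one of the HMG-CoA reductases of zebrafish, they were 10.31, 8.35 and 10.09 in NOR, 10.40, 10.15 and 9.84 in DIO, and 11.56, 11.39 and 12.10 in DIO+OF, again with all 3 DIO+OF arrays on top.

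Mevalonate is then activated. In HBx,src the signals of mvk, mevalonate kinase, were 4.04, 1.70 and 2.29 in NOR, 1.96, 2.38 and 1.94 in DIO, and 2.03, 6.60 and 5.51 in DIO+OF. DIO+OF replicate 1 and all DIO arrays were close to the array medians given above, NOR replicate 1 was somewhat higher, and DIO+OF replicates 2 and 3 were the highest. The next kinase, pmvk, had 5.58, 3.64 and 4.23 in NOR, 5.47, 3.40 and 4.75 in DIO, and 5.33, 6.88 and 7.31 in DIO+OF. Its DIO+OF replicate 1 lay just under the highest DIO array. For mvda, the decarboxylase that yields isopentenyl diphosphate, the signals were 6.21, 3.89 and 6.16 in NOR, 6.79, 5.08 and 4.77 in DIO, and 7.73, 9.05 and 10.50 in DIO+OF, with no overlap.

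The last enzymes isomerise and join the isoprenoid units. In HBx,src, idi1, the isopentenyl diphosphate isomerase, had 9.52, 6.34 and 8.33 in NOR, 7.76, 7.65 and 7.21 in DIO, and 8.74, 10.19 and 10.53 in DIO+OF. DIO+OF lay above DIO, while NOR replicate 1 lay between the DIO+OF arrays. For fdps, farnesyl diphosphate synthase, the signals were 3.00, 1.80 and 3.08 in NOR, 2.24, 2.34 and 2.24 in DIO, and 2.58, 4.09 and 7.10 in DIO+OF. A single array, DIO+OF replicate 3, carried most of that difference. The DIO arrays were close to the array medians given above, and DIO+OF replicate 1 was slightly higher. The signals of fdft1, squalene synthase, were 7.02, 3.99 and 5.75 in NOR, 6.59, 5.86 and 5.96 in DIO, and 7.77, 10.04 and 10.44 in DIO+OF, so the 3 DIO+OF arrays were the 3 highest.

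For OF in HBx,src (3 DIO+OF against 3 DIO arrays), the log2 fold changes lay between 1.43 and 4.43 with a median of 2.31, against -0.05 over all probe sets. In limma's fit 0 of the 10 were called at an adjusted p under 0.05, where 0.233% of all probe sets were called higher. The methods of the study set a cutoff of 2-fold with an unadjusted p under 0.05, by which 8 of 10 were higher, against 3.1% of all probe sets, and acat2 and hmgcra did not pass. The arrays of the groups did not overlap for 6 of 10, against 6.51% of probe sets. The smallest adjusted p was that of hmgcs1, with a log2 fold change of 4.43 ± 0.90 (SE, n = 3 and 3 arrays), or 21.5-fold, and an adjusted p of 0.0539. Its other probe set gave 4.23 ± 0.84 with an adjusted p of 0.0481, which passes. Next came fdft1 at 3.28 ± 0.71 (adjusted p = 0.0643) and mvda at 3.54 ± 0.84 (adjusted p = 0.0872).

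These counts depend on 1 array. DIO+OF replicate 1 of HBx,src lay below the mean of its group for 10 of 10 enzymes. Without it 7 were called higher in this comparison (hmgcs1, mvk, pmvk, mvda, idi1, fdps and fdft1), where 2.54% of all probe sets were called in either direction, and the median was 3.32. Without NOR replicate 2 the fit called 3, where 0.499% of all probe sets were called in either direction. Without DIO replicate 1 it called 1, where 0.213% were. The count was 0 without any 1 of the other 14 arrays.

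Livers of HBx,src,p53 showed the reverse, and the same enzymes were high in NOR and DIO and low in DIO+OF. The log2 signals of aacs were 9.15 and 9.57 in NOR (replicates 1 and 2), 9.79, 9.61 and 10.19 in DIO, and 5.04, 4.70 and 3.96 in DIO+OF. No DIO+OF array came near the others. Those of acat2 were 9.15 and 9.86 in NOR, 8.79, 9.02 and 9.72 in DIO, and 7.05, 6.60 and 4.23 in DIO+OF, with replicate 3 the lowest.

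For hmgcs1 the signals were 10.87 and 12.30 in NOR, 11.24, 10.18 and 11.42 in DIO, and 7.75, 8.23 and 6.16 in DIO+OF of this line. The 3 DIO+OF arrays lay below all others. In contrast, hmgcra had 11.79 and 12.15 in NOR, 11.32, 11.66 and 11.72 in DIO, and 10.73, 11.61 and 7.75 in DIO+OF. Its DIO+OF replicate 2 lay within the DIO range and replicate 3, the array with low vitellogenin signal, lay far below. The reductase was the 1 enzyme of the 10 whose DIO and DIO+OF arrays overlapped.

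In the middle of the pathway, mvk had signals of 6.35 and 6.74 in NOR, 6.19, 5.58 and 6.61 in DIO, and 3.09, 2.41 and 2.33 in DIO+OF. The DIO+OF values were close to the array medians of this batch. Signals of pmvk were 6.58 and 6.56 in NOR, 6.67, 7.27 and 7.76 in DIO, and 5.60, 6.27 and 5.35 in DIO+OF, a narrower range than for its neighbours in the pathway. Those of mvda were 7.80 and 8.81 in NOR, 8.20, 7.83 and 8.90 in DIO, and 5.41, 5.23 and 3.05 in DIO+OF, again with replicate 3 lowest.

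At the end of the pathway, idi1 had 10.48 and 10.91 in NOR, 9.82, 9.75 and 10.48 in DIO, and 7.29, 7.61 and 6.81 in DIO+OF of HBx,src,p53. The 3 DIO+OF arrays were close together. For fdps the signals were 6.61 and 6.73 in NOR, 4.19, 4.13 and 5.61 in DIO, and 3.59, 3.21 and 3.28 in DIO+OF. Here the DIO arrays also lay below both NOR arrays. Squalene synthase, fdft1, had 8.98 and 9.83 in NOR, 8.53, 8.69 and 9.38 in DIO, and 5.47, 6.24 and 5.59 in DIO+OF, with a gap between DIO+OF and the rest.

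For OF in HBx,src,p53 (3 DIO+OF against 3 DIO arrays), 5 of 10 enzymes fell at an adjusted p under 0.05 over all probe sets, where 0.766% of probe sets were called lower. The log2 fold change of aacs was -5.30 ± 0.93 (adjusted p = 0.0132), or 39.3-fold lower. Those of acat2 and mvda were -3.22 ± 0.71 (adjusted p = 0.0383) and -3.75 ± 0.84 (adjusted p = 0.0424). The values of idi1 and fdft1 were -2.78 ± 0.63 (adjusted p = 0.0443) and -3.10 ± 0.71 (adjusted p = 0.0475). Changes of hmgcs1 (-3.56 ± 0.90, adjusted p = 0.0678) and mvk (-3.52 ± 0.87, adjusted p = 0.0649) were of similar size and did not pass. The other 3 were pmvk at -1.50 ± 0.61, hmgcra at -1.54 ± 0.74 and fdps at -1.28 ± 0.81, with adjusted p between 0.267 and 0.508. The median over the 10 was -3.16, against 0.00 over all probe sets. At the methods' threshold 8 were lower, against 2.86% of probe sets, and 9 did not overlap, against 8.9%.

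Without the array with low vitellogenin signal, all 10 fold changes stayed below 0 with a median of -2.76, and 0 were called, where 0.59% of all probe sets were called in either direction. The log2 fold change of aacs was then -4.99 with an adjusted p of 0.062, and that of hmgcra was -0.40. Leaving out any 1 of the 17 arrays gave between 0 and 7 calls, where 0.59% to 1.65% of all probe sets were called. It gave 1 call without NOR replicate 1 or 2, DIO replicate 1, 2 or 3, or DIO+OF replicate 2 of this line or HBx,src DIO replicate 3, and 2 without HBx,src NOR replicate 3, DIO replicate 2 or DIO+OF replicate 2. It gave 3 without DIO+OF replicate 1 of this line or HBx,src DIO replicate 1. The call of aacs held in 16 of the 17 fits.

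The difference in the OF contrast between the lines, tested in the same fit as HBx,src,p53 minus HBx,src, was below 0 for 10 of 10 enzymes with a median of -5.60, against 0.05 over all probe sets. It was called for 6, where 0.44% of probe sets were called lower, and 10 passed the methods' threshold, against 4.25%. The differences were -7.99 ± 1.27 for hmgcs1 (adjusted p = 0.0211), -7.61 ± 1.31 for aacs (adjusted p = 0.0242) and -7.29 ± 1.19 for mvda (adjusted p = 0.0213). Those of fdft1, mvk and idi1 were -6.38 ± 1.01, -6.13 ± 1.24 and -5.06 ± 0.89, with adjusted p of 0.0206, 0.0418 and 0.0257. The other 4 did not pass: acat2 had -4.64 ± 1.00 (adjusted p = 0.0508), pmvk -3.46 ± 0.86 (adjusted p = 0.0858), fdps -3.60 ± 1.14 (adjusted p = 0.18) and hmgcra -3.09 ± 1.05 (adjusted p = 0.215). For mvk the DIO arrays of HBx,src and the DIO+OF arrays of HBx,src,p53 lay near the array medians and no detection call was used, so the size of its difference is uncertain. For fdps the DIO arrays of HBx,src lay near them too, and the size of its difference is likewise uncertain. Each line carries its own batch label, so the line and the batch cannot be told apart in the difference between the lines. The difference had 0 calls without HBx,src DIO replicate 2 or DIO+OF replicate 3, or without HBx,src,p53 DIO replicate 3 or DIO+OF replicate 3. It had 1 without HBx,src DIO replicate 3 or DIO+OF replicate 2, and 3 without HBx,src,p53 DIO+OF replicate 2. In these fits 0.0851% to 0.194% of all probe sets were called in either direction. Without the array with low vitellogenin signal the median was -5.42, the value of hmgcra was -1.95 and the smallest adjusted p was 0.0515.

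**Figure D2:**
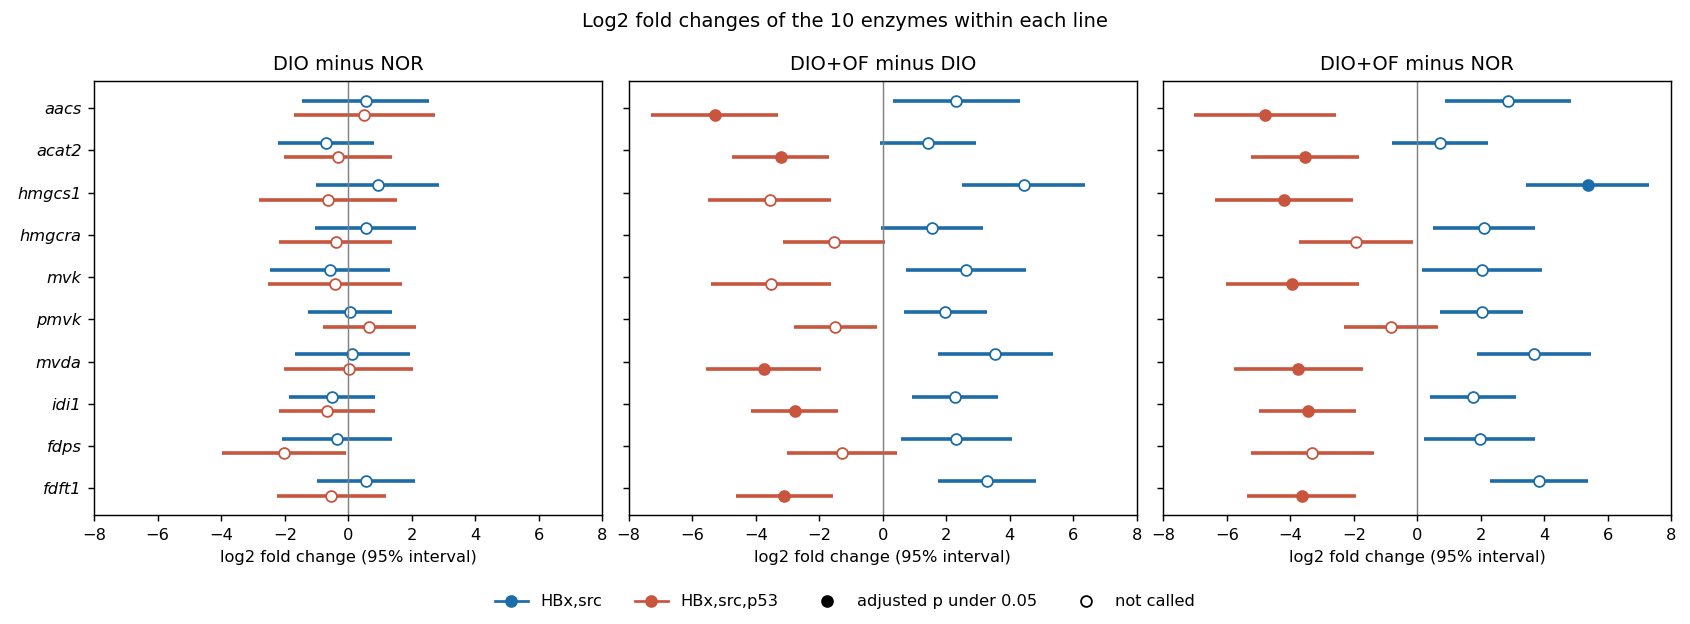
Log2 fold changes (x axis) of the 10 enzymes (rows) in 3 comparisons, with HBx,src in blue and HBx,src,p53 in red and horizontal bars for the 95% interval of the fit. Filled points passed an adjusted p of 0.05, and with OF the blue points lie to the right of 0 and the red ones to the left for all 10 enzymes. Points of DIO minus NOR lie on both sides of 0 in each line, and the interval of fdps in HBx,src,p53 lies wholly below 0.

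Overfeeding alone was tested on DIO against NOR, and these comparisons share their DIO arrays with those of OF. In HBx,src the log2 fold changes lay between -0.71 for acat2 and 0.93 for hmgcs1 with a median of 0.09, against 0.03 over all probe sets. None was called by limma (0 of 10), where 0.00665% of probe sets were called in either direction, and 0 had an unadjusted p under 0.05, against 5.97% of probe sets. The 95% interval of hmgcs1, from -1.01 to 2.86, leaves room for a change of several fold in this small group. For HBx,src,p53 the median was -0.41, against 0.00 over all probe sets, and 0 of 10 were called by limma, where 2.91% of probe sets were. At an unadjusted p under 0.05 the count was 1, against 16.4% of probe sets. The enzyme furthest from 0 there was fdps at -2.03 ± 0.90 (unadjusted p = 0.0419, adjusted p = 0.278), and its DIO arrays all lay below NOR. Such a gap was seen for 2 of 10 enzymes downward (fdps and hmgcra), against 19% of probe sets, and for 2 upward (aacs and pmvk), against 15.4%. The difference in the diet contrast between the lines had a median of -0.14 and was called by limma for 0 of 10, where 0.108% of probe sets were called, and 0 had an unadjusted p under 0.05, against 10.2%.

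Against NOR, DIO+OF livers of HBx,src had a median log2 fold change of 2.07 over the enzymes, against -0.02 over all probe sets. Only hmgcs1 was called, at 5.36 ± 0.90 (adjusted p = 0.0492), where 0.0465% of probe sets were called higher, and 9 of 10 passed the methods' threshold, against 1.77%. The other probe set of hmgcs1 gave 4.82 ± 0.84 with an adjusted p of 0.0577, which does not pass. The arrays did not overlap for 4, against 5.14%. The call of hmgcs1 held without HBx,src DIO replicate 1 or without HBx,src,p53 DIO+OF replicate 3. It was lost without any 1 of 14 other arrays. Without DIO+OF replicate 1, 4 enzymes were called, where 0.695% of all probe sets were called in either direction. The same DIO+OF arrays enter here and in the comparison with DIO, so these comparisons are not independent.

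DIO+OF against NOR in HBx,src,p53 (3 against 2 arrays) had 7 of 10 enzymes called lower, where 2.17% of probe sets were. These were aacs, acat2, hmgcs1, mvk, mvda, idi1 and fdft1, with log2 fold changes between -4.79 for aacs and -3.46 for idi1. The median over the 10 was -3.59, against 0.00 over all probe sets. For fdps the value was -3.31 ± 0.90 (adjusted p = 0.0598), and for hmgcra and pmvk it was -1.94 ± 0.83 and -0.83 ± 0.68. All 10 enzymes lay below NOR in each DIO+OF array, against 16.6% of probe sets, and 9 passed the methods' threshold, against 6.32%. Calls fell to 0 without NOR replicate 1, NOR replicate 2 or DIO+OF replicate 3, to 2 without DIO+OF replicate 2 and to 4 without DIO+OF replicate 1. In these fits 0.991% to 3.19% of all probe sets were called in either direction. Without DIO+OF replicate 3 the median was -3.26 and the value of hmgcra was -0.80.

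The enzymes also varied together among arrays of the same group. NOR replicate 2 of HBx,src had the lowest signal of its line for 8 of 10 enzymes and lay below its group mean for all 10, and DIO+OF replicate 3 had the highest for 9. Of the HBx,src,p53 arrays, NOR replicate 2 was the highest for 7 enzymes and DIO+OF replicate 3 the lowest for 8. The mean log2 signal over the 10 in HBx,src was 7.03, 4.60 and 6.23 in NOR, 6.67, 5.58 and 5.78 in DIO and 7.17, 8.97 and 9.60 in DIO+OF. The HBx,src,p53 means were 8.78 and 9.34 in NOR, 8.47, 8.37 and 9.18 in DIO, and 6.10, 6.21 and 4.85 in DIO+OF. Spread within a group (SD) was 1.24, 0.58 and 1.26 in the HBx,src groups and 0.40, 0.44 and 0.76 in those of HBx,src,p53, in the order NOR, DIO, DIO+OF.

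**Figure D3:**
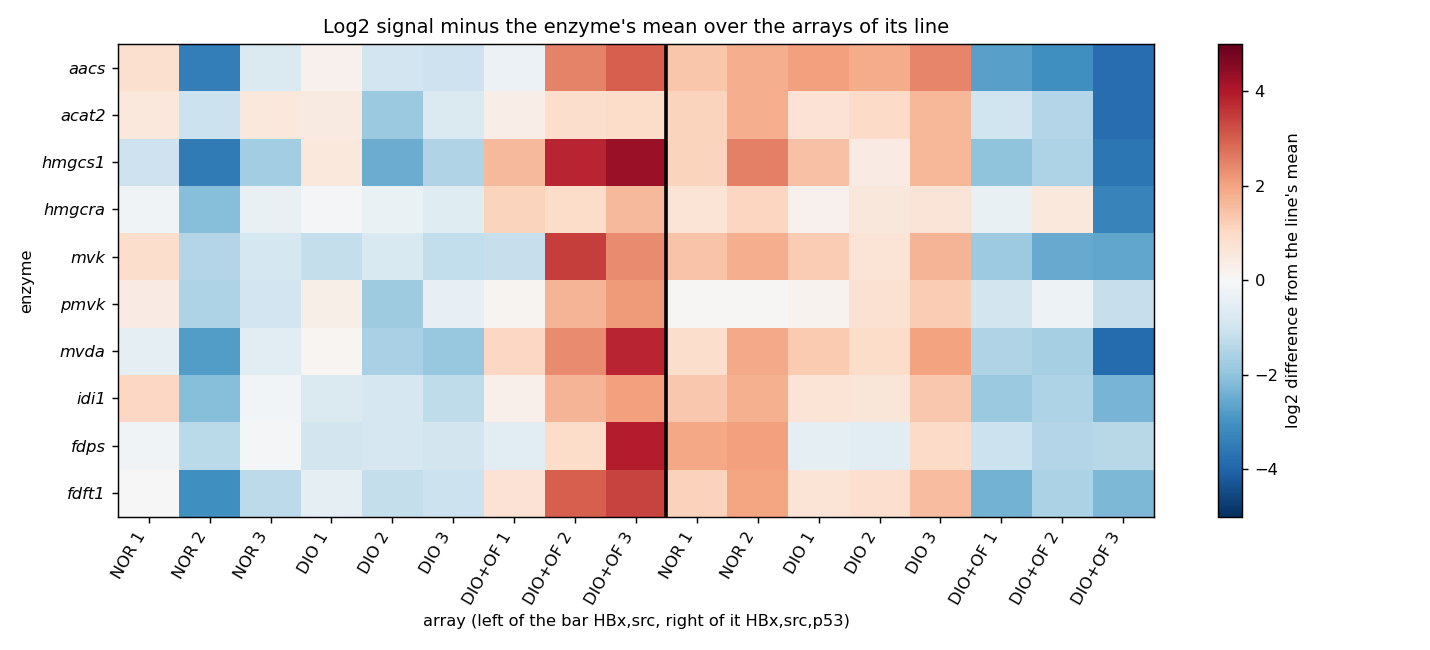
Heat map of the log2 signal of each enzyme (rows) minus its mean over the arrays of the same line, for the 17 arrays (columns), with HBx,src left of the black bar. Columns tend to carry 1 colour from top to bottom, with HBx,src NOR replicate 2 low and HBx,src DIO+OF replicates 2 and 3 high for all 10 enzymes.

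Among the members, idi1 followed the mean profile of the 10 most closely, with a root mean square difference of 0.39 log2 units over the 17 arrays after centring on each line. It was followed by fdft1 at 0.47 and mvda at 0.55. The furthest was hmgcs1 at 0.96, which had a wider swing than the mean, with a root mean square of its own of 2.34. The narrowest was pmvk at 1.05. The array values of hmgcs1 in HBx,src spanned 7.84 log2 units, from 5.03 to 12.87, and those of acat2 spanned 2.79.

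The enzymes after squalene had values in the same directions. Of 12 genes listed from squalene to cholesterol, 11 were measured. With OF in HBx,src their median log2 fold change was 1.96, 11 of 11 were above 0 and 0 were called. With OF in HBx,src,p53 the median was -2.83, 10 of 11 were below 0 and 3 fell, where 0.766% of all probe sets were called lower. These were lss, the synthase that closes the sterol rings, at -4.65 ± 0.82 (adjusted p = 0.014), ebp, a sterol isomerase, at -3.87 ± 0.80 (adjusted p = 0.0296), and hsd17b7, a sterol ketoreductase, at -3.51 ± 0.77 (adjusted p = 0.0385). The exception to the direction was lbr, a sterol reductase that also anchors chromatin to the nuclear envelope, at 1.08 ± 0.36 (adjusted p = 0.163). In HBx,src its log2 fold change was 0.09 with all DIO and DIO+OF arrays and -0.0092 without DIO+OF replicate 1. For tm7sf2 of this list the DIO+OF signals in HBx,src,p53 (9.53, 10.04 and 9.81) overlapped those of DIO (9.73, 10.06 and 10.39). The difference between the lines was called for 6 (ebp, lss, hsd17b7, dhcr7, nsdhl and sc5d), where 0.44% of all probe sets were called lower. For all 6 the OF contrast (DIO+OF minus DIO) was lower in HBx,src,p53 than in HBx,src, and the median difference over the list was -4.56. Without the array with low vitellogenin signal 0 of 11 were called in either, with medians of -2.21 and -4.17. Without HBx,src DIO+OF replicate 1, 2 were called higher with OF in HBx,src and the difference was called for 8. Of all probe sets, 2.54% and 2.19% were then called in either direction.

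Squalene epoxidase, sqlea, which takes up the product of fdft1, had log2 signals of 8.31, 3.65 and 5.65 in NOR, 7.79, 6.33 and 7.34 in DIO, and 9.12, 10.28 and 10.99 in DIO+OF of HBx,src. The HBx,src,p53 signals were 9.30 and 10.79 in NOR, 9.88, 9.41 and 10.43 in DIO, and 6.20, 7.19 and 2.40 in DIO+OF. The arrays did not overlap in either line. Its log2 fold changes with OF were 2.97 ± 1.18 (adjusted p = 0.336) and -4.64 ± 1.18 (adjusted p = 0.0695), and the difference missed the threshold (-7.61 ± 1.67, adjusted p = 0.0531). Without the array with low vitellogenin signal, whose 2.40 was the lowest of its line, the fold change in HBx,src,p53 was -3.21 ± 1.03 (adjusted p = 0.233) and the difference -6.18 ± 1.38 (adjusted p = 0.0909).

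Of 15 genes of sterol sensing and uptake, 11 were measured, and the low density lipoprotein receptor gene ldlra was not analysed here. The median log2 fold changes with OF were 0.25 in HBx,src and -0.15 in HBx,src,p53. The 2 SREBP genes showed smaller differences than the enzymes: srebf2 had 0.52 ± 0.37 in HBx,src (adjusted p = 0.68) and -1.03 ± 0.37 in HBx,src,p53 (adjusted p = 0.202). Without the array with low vitellogenin signal the latter was -0.49 ± 0.27 (adjusted p = 0.533). The values of srebf1 were -0.12 ± 0.24 (adjusted p = 0.922) and -1.02 ± 0.24 (adjusted p = 0.0531), the latter -0.89 ± 0.27 without that array (adjusted p = 0.194). In HBx,src,p53 without that array the difference of hmgcra, -0.40, was smaller than that of either SREBP gene. For scap, the SREBP escort, DIO+OF was 2.64-fold higher than DIO in HBx,src (SE 0.29 on the log2 scale, adjusted p = 0.0587) and the log2 fold change was -0.70 ± 0.29 in HBx,src,p53 (adjusted p = 0.276), and the difference between the lines passed at -2.10 ± 0.41 (adjusted p = 0.0384), but not without the array with low vitellogenin signal (-2.00 ± 0.45, adjusted p = 0.09). Its DIO+OF signals in HBx,src, 6.76, 7.39 and 7.80, lay above the DIO signals of 5.82, 6.05 and 5.89.

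The gene insig1, whose product retains SREBPs, had 1.75 ± 0.54 with OF in HBx,src (adjusted p = 0.189) and 0.19 ± 0.54 in HBx,src,p53 (adjusted p = 0.924), or 0.61 ± 0.57 without the array with low vitellogenin signal (adjusted p = 0.768). The other HMG-CoA reductase gene, hmgcrb, had 1.50 ± 0.40 (adjusted p = 0.125) and -0.15 ± 0.40 (adjusted p = 0.917). In HBx,src,p53 its DIO+OF signals of 6.33, 5.97 and 6.03 overlapped the DIO signals of 6.02, 6.37 and 6.38. Without HBx,src DIO+OF replicate 1, 2 of the 11 genes were called higher with OF in HBx,src. These were hmgcrb at 2.08 ± 0.29 (adjusted p = 0.00429) and scap at 1.68 ± 0.29 (adjusted p = 0.0116). The OF difference was then called lower for 2 (hmgcrb and scap) and higher for 1 (mbtps2). Of all probe sets, 2.54% and 2.19% were then called in either direction. The 1 gene of this list called with OF in HBx,src,p53 was mbtps2, a protease that releases SREBPs in mammals, which rose by 1.39 ± 0.24 (adjusted p = 0.0129), and it was not called without the array with low vitellogenin signal.

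**Figure D4:**
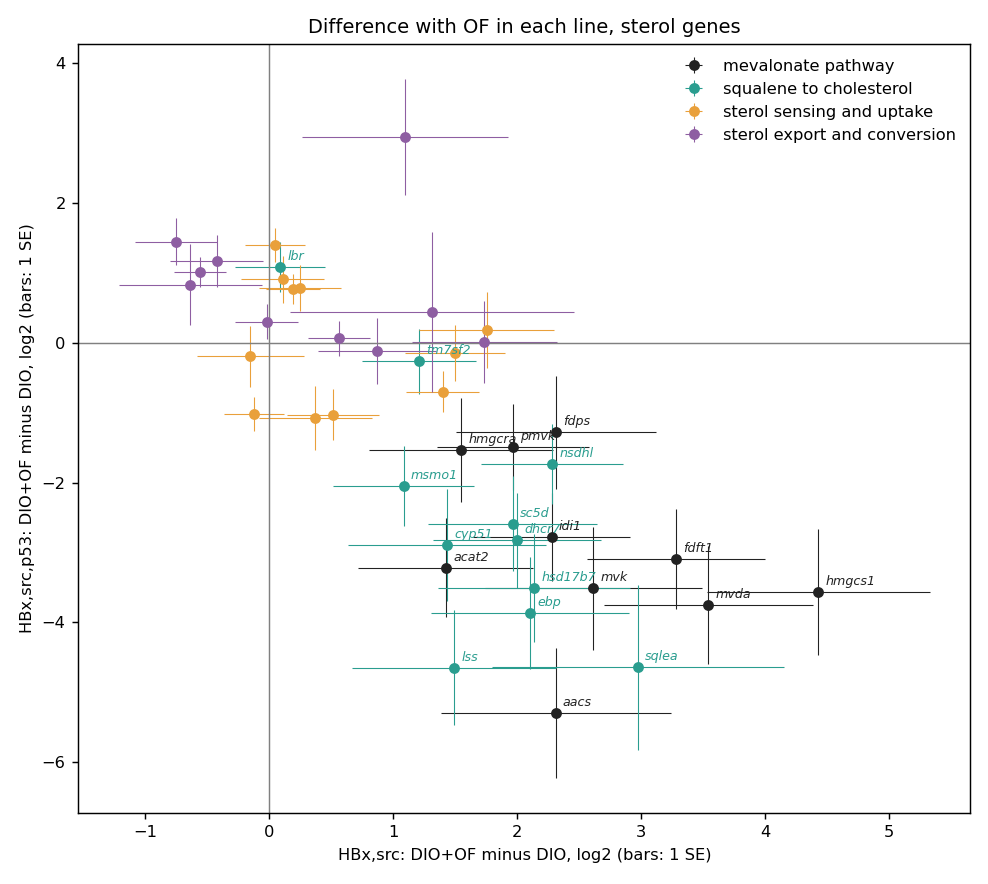
Log2 fold change with OF in HBx,src (x axis) against that in HBx,src,p53 (y axis) for the mevalonate enzymes (black), the enzymes from squalene to cholesterol (green), genes of sterol sensing and uptake (orange) and genes of sterol export and conversion (purple), with bars of 1 SE. All 10 black points lie right of and below 0, and the orange and purple points lie closer to the horizontal 0 line or above it.

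Among 10 measured genes of sterol export and conversion, 2 rose with OF in HBx,src,p53: abcg8, a subunit of the sterol exporter, by 1.45 ± 0.33 (adjusted p = 0.0467) and cyp27a1.4, of a family that oxidises sterols, by 1.01 ± 0.21 (adjusted p = 0.0308). Neither was called without the array with low vitellogenin signal. The share of all probe sets called higher with OF in HBx,src,p53 is not given, here or for the other lists. With any 1 array left out, 0.59% to 1.65% of all probe sets were called in either direction. In the OF difference 2 of the 10 genes were called higher, and the share of all probe sets called higher is not given there either. Leaving out any 1 array, 0.0851% to 2.19% of all probe sets were called in this difference in either direction. None was called (0 of 10) without the array with low vitellogenin signal, where 0.137% of all probe sets were called in either direction. For cyp7a1, the rate-limiting enzyme of bile acid synthesis, the value was 2.94 ± 0.83 (adjusted p = 0.102), and 2.48 ± 0.92 without that array (adjusted p = 0.306). In HBx,src 0 of the 10 were called, and the medians were 0.27 and 0.64.

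Genes that draw on isoprenoid diphosphates for prenylation, ubiquinone, dolichol and tRNA modification (13 of 13 measured) had medians of 0.66 with OF in HBx,src, with 12 of 13 above 0, and of -0.40 in HBx,src,p53, with 7 of 13 below 0. In HBx,src 0 were called, but 4 were called higher without DIO+OF replicate 1, where 2.54% of all probe sets were called in either direction. Without that array 5 were called lower in the OF difference, where 2.19% of all probe sets were called in either direction. With it none was called in the OF difference (0 of 13). The 1 called in HBx,src,p53 was fntb, a farnesyltransferase subunit, which rose by 1.38 ± 0.29 (adjusted p = 0.0313) and was also called without the array with low vitellogenin signal (adjusted p = 0.0402). Against NOR, DIO+OF livers of HBx,src,p53 had 4 called lower (pdss1, pdss2, nus1 and fnta), where 2.17% of all probe sets were. There 1 was called higher (fntb), for which the share of all probe sets called higher is not given, and 11 of 13 were below 0. Without the array with low vitellogenin signal pdss2, fnta and fntb passed, and pdss1 and nus1 had adjusted p of 0.0525 and 0.0527. Among 11 measured genes of acetyl-CoA supply, fatty acid synthesis and ketone bodies, the medians with OF were -0.03 and 0.46. Only bdh1, which interconverts ketone bodies, was called, rising by 1.82 ± 0.30 in HBx,src,p53 (adjusted p = 0.00876, and 0.04 without the array with low vitellogenin signal). Fatty acid synthase, fasn, had 1.10 ± 1.07 and -2.57 ± 1.07 (adjusted p = 0.791 and 0.275).

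The genes whose profile over the 17 arrays was most like the mean of the 10 were compared by the same root mean square difference, over 20898 genes whose median was 1.58. The 12 nearest were dhcr7 (0.44), sc5d (0.49), hsd17b7 (0.54), zgc:153675 (0.54), ebp (0.58), slc17a9b, tmem263, cyp51, fam219aa, gpr180, them4 and hspa5 (0.69). Of these, dhcr7, sc5d, hsd17b7, ebp and cyp51 are enzymes of the list from squalene to cholesterol. Within HBx,src,p53 the nearest was again dhcr7 (0.27), and the 12 included creld2, manf, hyou1 and serp1, which act in or at the endoplasmic reticulum. Within HBx,src the nearest was slc25a22a (0.35), and of the cholesterol list nsdhl (0.52) and dhcr7 (0.55) were among the 12. These also held MVD (0.54), a symbol that the list of members, which has mvda, did not include. This likeness is a description over arrays that share groups and batches. It was not repeated without the array with low vitellogenin signal, so how far the nearest genes depend on that array was not tested.

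In whole liver, fewer cells of a type and less RNA per cell cannot be told apart. Signals of other cells differed among the same arrays. Exocrine pancreas markers (8 of 10 measured) had a median signal per array of 3.27 to 3.88 in DIO+OF and 4.30 to 5.67 in DIO of HBx,src, and 5.98 to 9.79 and 7.02 to 9.57 in HBx,src,p53. Of these, 0 were called with OF in either line, 8 of 8 had values below 0 in HBx,src and 7 of 8 in HBx,src,p53, where the median of -0.88 became 0.01 without DIO+OF replicate 3. NOR replicate 2 of HBx,src, with the lowest enzyme signals, had the highest pancreas median of its line, 5.86. Red blood cell markers (6 of 7 measured) had medians of 3.22 to 3.77 in DIO+OF and 3.04 to 3.54 in DIO of HBx,src, and of 4.27 to 6.44 and 3.81 to 4.32 in HBx,src,p53, the highest in DIO+OF replicate 3. Ovary markers (10 of 10) lay between 1.78 and 3.47 in all arrays. Of these, 2 were called lower with OF in HBx,src,p53, where 0.766% of all probe sets were, and 0 without DIO+OF replicate 3. Hepatocyte markers had medians of 11.18 to 11.82 in DIO+OF and 11.90 to 12.06 in DIO of HBx,src, and of 12.26 to 12.87 and 11.99 to 12.11 in HBx,src,p53. With OF, 4 of 11 were above 0 in HBx,src and 10 of 11 in HBx,src,p53, where 1 (ttr, transthyretin) rose by 0.98 ± 0.20 (adjusted p = 0.0289), 0 were called without DIO+OF replicate 3, and 11 of 11 were above 0 in the OF difference. The part of these markers in the differences of the enzymes was not tested.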

How the data were processed

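Liver RNA of 17 fish samples was hybridised to ZebGene arrays in 1 colour. For every probe set the authors deposited a normalised log2 signal per array; the labels name Transcriptome Analysis Console as the software, while its version, the genome build and the algorithms of summarisation and normalisation were not given in the sources used here. No array read-out was rescaled. The number of arrays limits the precision.

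Groups came from the sample labels. Of 75212 probe sets, the platform annotation gave 30358 a single gene symbol, 1015 several and 43839 none. A gene was represented by its probe set with the highest mean. All 17 arrays entered 1 limma fit (version 3.58.1, R 4.3.3) that estimates a mean for each group and moderates the variances by empirical Bayes (11 residual df, 2.67 prior df), as the study's methods name such a test. P-values were adjusted by Benjamini-Hochberg over all probe sets and called under 0.05. The ± values beside log2 fold changes are the fit's standard errors. The fit was tested on simulated data. Figures used Python 3.11.15, pandas 2.3.3 and matplotlib 3.10.9.

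The 10 members, the gene lists and the tests were chosen with earlier results of these data known. All 10 members and the sterol genes srebf2, srebf1, scap, insig1, hmgcrb, sqlea and lss were to be named, with up to 4 genes with the smallest p from each other list and the 12 nearest profiles. lbr, fasn and cyp7a1, and the second probe set of hmgcs1, were added once their values were known. Alternatives were a fit of the line alone, quantile normalisation, arrays centred on their medians, omission of the dimmest 40% of probe sets, array weights, a trended and robust prior, the replicate number taken as a block, the mean over a gene's probe sets, equal probe sets (14289 equal another) counted once, the methods' threshold, and leaving out each array in turn.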

Additional observations from a re-analysis of the deposited data

Results flagged for a closer look

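The difference in the OF contrast between the lines passed its own test for 6 enzymes, given as HBx,src,p53 minus HBx,src on the log2 scale: aacs at -7.61, hmgcs1 at -7.99, mvk at -6.13, mvda at -7.29, idi1 at -5.06 and fdft1 at -6.38. In each of them the DIO+OF mean lay above the DIO mean in HBx,src and below it in HBx,src,p53. Of all probe sets, 0.44% were called lower in this test. No enzyme (0 of 10) was called without HBx,src DIO replicate 2 or DIO+OF replicate 3, or without HBx,src,p53 DIO replicate 3 or DIO+OF replicate 3, nor with the replicate number as a block. Line and batch cannot be told apart in these values. No group held more than 3 arrays, so no single array was tested as an outlier.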

How the results depend on the processing

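Directions of the OF contrasts, of DIO+OF against NOR and of the OF difference between the lines were kept by every enzyme under all alternatives run (0 of 1340 values changed sign). Many of these values could not change sign. The fit of the line alone, another prior, another set of probe sets or another threshold leaves a fold change as it was. So does leaving out an array that is not in the comparison. The calls depended on the setting. With OF in HBx,src, where none of the 10 was called, 2 were called with the dimmest 40% of probe sets left out, 1 with array weights, 3 with the mean over a gene's probe sets, 1 with equal probe sets counted once and 8 at the methods' threshold. With OF in HBx,src,p53 the 5 calls became 1 with array weights and 8 at the methods' threshold. For DIO+OF against NOR in HBx,src the 1 call became 0 in the fit of the line alone, with centred arrays or with a trended and robust prior, 2 without dim probe sets or with the mean over probe sets, and 9 at the methods' threshold. The OF difference had 10 at the methods' threshold, and the diet in HBx,src,p53 had 1. For the OF contrasts, DIO+OF against NOR and the OF difference, the shares of all probe sets at the methods' threshold are given above. The shares called under the other settings, the replicate block below included, were not counted. A change of the enzymes alone therefore cannot be told apart there from one over all probe sets. The causes were not tested.

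The sample labels do not say whether the replicate numbers pair arrays. Of 16 same-numbered pairs, 0 had a correlation of deviations over 0.1 (range -0.08 to 0.10). With so few arrays per group, these values cannot settle whether arrays were paired. With the replicate number as a block, 0 enzymes were called for OF in HBx,src,p53, for DIO+OF against NOR in HBx,src and in HBx,src,p53, and for the OF difference.

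Leaving out each array in turn gave 0 to 7 calls for OF in each line, 0 to 9 for the OF difference, 0 to 4 and 0 to 8 for DIO+OF against NOR in HBx,src and HBx,src,p53, and 0 to 1 for the diet in HBx,src,p53. Shares of all probe sets called in either direction were 0.0545% to 2.54% for OF in HBx,src and 0.59% to 1.65% in HBx,src,p53. They were 0.0851% to 2.19% for the OF difference. For DIO+OF against NOR they were 0.00798% to 0.695% in HBx,src and 0.991% to 4.55% in HBx,src,p53. For the diet in HBx,src,p53 they were 0.905% to 3.58%. The medians over the enzymes then ran from 1.80 to 3.32 for OF in HBx,src, from -3.38 to -2.76 for OF in HBx,src,p53, from 1.57 to 3.17 for DIO+OF against NOR in HBx,src, from -3.98 to -3.24 in HBx,src,p53 and from -6.40 to -5.03 for the OF difference.

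Among diet values, none of them called in the main fit, 37 of 800 changed sign. In HBx,src pmvk was -0.0165 with array weights. In HBx,src,p53 mvda was -0.024 with centred arrays and hmgcra 0.13 with the block. In the difference between the lines aacs was 0.15 with array weights and 0.0297 with the block, mvda 0.056 and 0.11, and idi1 0.0023 with array weights. Leaving out arrays gave ranges in HBx,src of -0.62 to 1.51 for aacs, -0.25 to 1.27 for fdft1, -0.0682 to 0.91 for hmgcra, -1.38 to 0.21 for idi1, -0.64 to 0.52 for mvda, -1.07 to 0.10 for mvk and -0.41 to 0.63 for pmvk. In HBx,src,p53 they were -0.68 to 0.0246 for acat2, -1.35 to 0.0765 for hmgcs1 and -0.50 to 0.51 for mvda. In the difference they were -1.01 to 1.12 for aacs, -0.19 to 0.96 for acat2, -0.88 to 0.71 for idi1, -0.63 to 0.64 for mvda and -0.51 to 0.65 for mvk.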
